A study of Mus musculus with 3 samples.

Results

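The VEGF family joins tissue cells to blood and lymph vessels. Of 32285 genes in the count matrices, 9 were chosen by symbol: the ligands Vegfa, Vegfb, Vegfc and Pgf, the receptor tyrosine kinases Flt1, Kdr and Flt4, and the neuropilins Nrp1 and Nrp2. All 9 symbols were found, each on 1 row. Their raw unique molecular identifiers (UMIs) were summed over the cells of a class in a library and divided by all UMIs of that class, which gives CPM, the UMIs of a gene in every 1000000 UMIs of the class.

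There were 3 single-cell 3′ libraries of dorsal skin from 8-week-old C57Bl/6 males in telogen, the resting phase of the hair cycle, enriched for CD45+ cells with magnetic beads. WTctrl was wild-type skin without UVB. WTUV was wild-type skin after 3 UVB exposures. RPUV was skin of RP mice after the same exposures. RP mice carry Rosa26-rtTA and Tre-Ptgs2 and, per the study, express rat Cox-2, the prostaglandin synthase encoded by Ptgs2, in all tissues on doxycycline. Irradiated skin was collected at day 5, per the study, which was the day of the last exposure. The study gives this as the timepoint of its bulk RNA samples, taken hours after that exposure. Each group was 1 library, so no difference had a replicate check and no test was possible.

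VEGF-A, encoded by Vegfa, is released by keratinocytes, fibroblasts and leukocytes of skin and makes vessels sprout and leak. It acts through VEGFR2 (Kdr), the main signalling receptor of blood endothelium, while VEGFR1 (Flt1) binds VEGF-A tightly, signals weakly in endothelium and attracts monocytes. Placental growth factor (Pgf) and VEGF-B (Vegfb) bind Flt1 and not Kdr, and VEGF-C (Vegfc) acts on lymphatic vessels through VEGFR3 (Flt4). The neuropilins are co-receptors that also bind class 3 semaphorins. Prostaglandin E2, a product of Cox-2, is known as an inducer of VEGF-A in many cell types.

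Among the 4 ligands, Pgf differed most between the libraries over all cells. Vegfa encodes the main ligand of the family, and Flt1 and Kdr the receptors of the receiving endothelium. The promoters of these 4 genes are therefore shown, from RefSeq on GRCm38.p6 (mm10), as 250 bases before to 50 bases after a transcription start, 5′ to 3′ on the minus strand. By the gene spans given below, the windows of Pgf, Flt1 and Kdr lie inside the gene and not upstream of it. Capitals mark GC boxes, searched as GGGCGG and, on the other strand, CCGCCC.
Pgf, chr12:85177264-85177563: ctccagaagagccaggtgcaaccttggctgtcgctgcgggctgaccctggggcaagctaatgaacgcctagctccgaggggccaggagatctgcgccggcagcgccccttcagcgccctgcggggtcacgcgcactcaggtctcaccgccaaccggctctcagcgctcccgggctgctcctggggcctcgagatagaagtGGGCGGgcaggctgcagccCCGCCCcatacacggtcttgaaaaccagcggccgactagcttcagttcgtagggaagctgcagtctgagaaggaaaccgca
Vegfa, chr17:46032328-46032627: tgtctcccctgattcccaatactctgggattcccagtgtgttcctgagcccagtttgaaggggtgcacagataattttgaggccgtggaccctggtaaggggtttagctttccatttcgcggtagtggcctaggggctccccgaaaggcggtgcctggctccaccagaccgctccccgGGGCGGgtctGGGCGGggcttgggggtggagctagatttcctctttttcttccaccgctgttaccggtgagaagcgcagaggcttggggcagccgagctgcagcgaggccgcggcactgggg
Flt1, chr5:147725962-147726261: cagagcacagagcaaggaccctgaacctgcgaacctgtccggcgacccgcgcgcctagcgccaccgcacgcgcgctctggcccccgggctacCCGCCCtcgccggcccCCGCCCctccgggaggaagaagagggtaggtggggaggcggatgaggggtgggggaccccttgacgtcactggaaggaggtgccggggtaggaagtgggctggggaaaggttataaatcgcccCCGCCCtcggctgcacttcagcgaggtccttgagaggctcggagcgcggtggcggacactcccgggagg
Kdr, chr5:75978406-75978705: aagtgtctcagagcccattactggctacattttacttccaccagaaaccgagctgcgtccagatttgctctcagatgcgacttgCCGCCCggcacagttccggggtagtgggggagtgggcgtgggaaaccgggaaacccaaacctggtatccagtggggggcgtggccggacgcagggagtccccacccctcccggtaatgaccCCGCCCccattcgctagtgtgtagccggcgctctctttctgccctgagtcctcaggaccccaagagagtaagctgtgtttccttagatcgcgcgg
A GC box was found in a window of all 9 members and in 35.7% of the 32851 promoter windows of that length. The cyclic AMP response element TGACGTCA, its own reverse complement, was found in 1 of the 9, Flt1, where it reads in lower case, and in 1.79% of windows. The hypoxia response core ACGTG or CACGT was found in 1 of the 9, at a second start of Vegfa (chr17:46025114-46025413), and in 19.6% of windows. Such a match is a description of letters only.

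The genes lie apart on the genome. In RefSeq coordinates on the same build, Vegfa spans chr17:46016993-46032377, Vegfb chr19:6982472-6987651, Vegfc chr8:54077532-54186454 and Pgf chr12:85166637-85177785. Flt1 spans chr5:147561604-147726438, Kdr chr5:75932827-75979072, Flt4 chr11:49609679-49652739, Nrp1 chr8:128358591-128505476 and Nrp2 chr1:62703317-62818692. UMIs of a 3′ library count transcript ends over the whole gene, so splice forms of Vegfa and the soluble form of Flt1 cannot be told from the full forms.

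After the limits on genes and mitochondrial share, 5309 cells of WTctrl, 5225 of WTUV and 6070 of RPUV were kept, with a median of 4246, 10557 and 3774 UMIs. Pairs of libraries shared 7 to 9 cell barcodes. WTctrl and RPUV came from 1 flow cell and the deeper WTUV from another, and WTUV kept cells of up to 6000 genes where the others kept up to 4000. Both comparisons with WTUV thus cross the runs, where run and group cannot be told apart, and RPUV differed from WTctrl in both UVB and genotype. Classes were named from 19 marker panels that left out the 9 genes, so every class below is called "-like". Of 137 clusters, 104 were named and 33, with 9.96%, 18.3% and 11.4% of cells in the order WTctrl, WTUV and RPUV, were not. Immune classes held 56.5%, 70.6% and 50.1% of cells. The other classes are carry-over through the CD45+ beads, so their cell numbers say nothing of the tissue.

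Ptgs2 stood at 14.4 CPM over all cells of WTctrl, at 117 in WTUV and at 486 in RPUV. In keratinocyte-like cells, it was at 5.40, 10.1 and 586 in the same order. In macrophage-like cells, the levels were 17.7, 101 and 150.3, and in neutrophil-like cells 328, 6148 and 4753. Of these classes, keratinocyte-like cells had the largest ratio of RPUV to WTUV. Other classes were also higher in RPUV. T cell-like cells were at 0, 2.09 and 241, and fibroblast-like cells at 1.94 in WTctrl and 119 in RPUV. Reads of the rat transgene and of mouse Ptgs2 cannot be told apart.

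**Figure D1:**
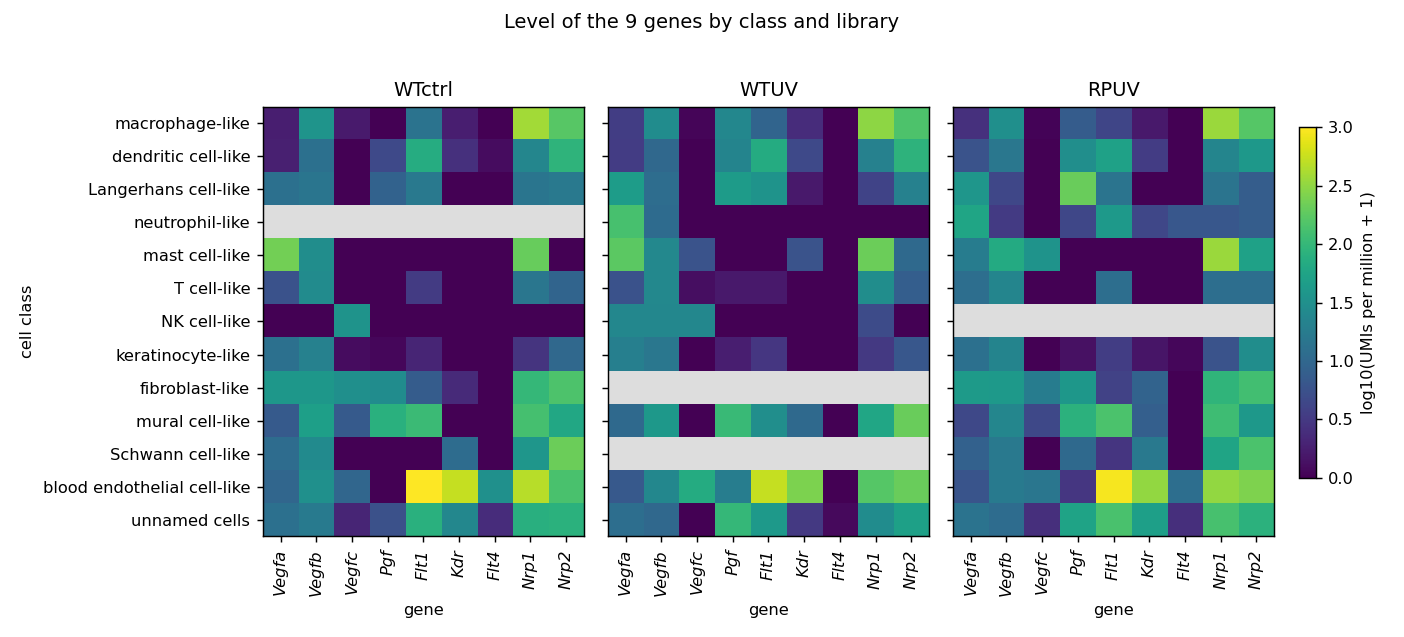
Level of the 9 genes (columns) in each marker-named class (rows) of the 3 libraries (panels), as the log10 of CPM plus 1. Grey rows are classes with under 20 cells in that library. Of the classes drawn, which leave out the few lymphatic endothelial cell-like cells, Flt1 and Kdr are highest in blood endothelial cell-like cells. Nrp1 is high in both endothelial and macrophage-like cells, and Pgf is at 0 in macrophage-like cells of WTctrl and at 23.8 in those of WTUV.

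Pgf was near absent from the immune cells of unirradiated skin and present in those of both irradiated libraries. Over all kept cells, its level was 3.37 CPM in WTctrl (87 UMIs), 37.6 in WTUV (2427 UMIs) and 16.2 in RPUV (471 UMIs). The level was thus highest in WTUV, the library of the other run, and higher in RPUV than in WTctrl within 1 run.

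In macrophage-like cells of WTctrl, 0 Pgf UMIs were found among 7809195 UMIs of 1936 cells, which allows up to 0.384 CPM. In those of WTUV, the level was 23.8 (738 UMIs in 305 of 2501 cells), at least 61.9-fold higher with 3 UMIs set for the count of 0. In RPUV, it was 6.56 (78 UMIs in 2249 cells), 0.276 times the WTUV level (95% interval, 0.215 to 0.349). Intervals here and below are exact, from the counts alone, and cover counting error only. Had each cell been thinned to 2000 UMIs, the expected share of macrophage-like cells with a Pgf UMI was 0% in WTctrl, 3.63% in WTUV and 0.889% in RPUV. That was the same order as for the unthinned levels. Unthinned, the shares were 0%, 12.2% and 2.18%, at median depths of 3857, 11171 and 4670 UMIs. T cell-like cells of WTUV, which are not a known source, had a thinned share of 0.0794% and an unthinned one of 0.382%, at a median of 5249 UMIs.

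Within the macrophage-like cells of WTUV, Pgf was uneven. Cluster 2.2, led by Cxcl2, C3ar1 and Mrc1, was at 88.3 CPM, and cluster 4.1, led by Il1b, was at 103.6. Clusters 0.1 (led by Ccl8) and 1.2 (led by Retnla), which held more cells, were at 1.42 and 0.803. RPUV held few cells of the first kind, 17 in cluster 2.2 and 14 in cluster 4.1. In those, Pgf stood at 74.4 (6 UMIs) and 79.0 (7 UMIs), with intervals that overlapped those of WTUV. The largest part of the Pgf UMIs of macrophage-like cells in RPUV, 33 of 78, came instead from cluster 2.1, led by Chil3, at 13.1. Different clusters held most macrophage-like cells in each library, 0.2, 1.1 and 2.0 in WTctrl, 0.1, 1.2 and 2.2 in WTUV, and 1.0, 0.0 and 2.1 in RPUV.

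Much of the Pgf lay outside the named classes. Unnamed cells stood at 4.51 CPM in WTctrl, 99.5 in WTUV and 53.3 in RPUV. Cluster 3.0, with Il1b, H2-Eb1 and Mmp12 among its leading genes and as close to the dendritic as to the macrophage markers, was its largest part in both irradiated libraries, with 4, 204 and 109 cells in the 3 libraries. This cluster stood at 245 in WTUV (984 UMIs) and at 132 in RPUV (95 UMIs). When cells of the macrophage, dendritic and Langerhans cell panels were pooled with no limit on their names, the level of RPUV was 0.438 times that of WTUV, against 0.276 in the named macrophage-like cells. The 2 irradiated libraries thus lay closer together once these cells were counted.

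Langerhans cell-like cells, the antigen-presenting cells of the epidermis, were also lowest in WTctrl, but stood higher in RPUV than in WTUV, where macrophage-like cells stood lower. Their Pgf level was 7.77 CPM in WTctrl (4 UMIs, all in 1 cell), 43.8 in WTUV (73 UMIs) and 207 in RPUV (62 UMIs in 18 of 43 cells). RPUV was 4.72 times WTUV (3.31 to 6.72). Expected thinned shares were 0.855%, 6.28% and 23.5% of cells. The higher level was seen in both clusters that held most of the class in WTUV and RPUV, with 75.3 in WTUV and 181 in RPUV in cluster 19.0, and 17.5 and 224 in the cycling cluster 24.0. The name of cluster 24.0, with 19 of the 43 cells of RPUV, was weaker, with no Langerhans marker among its 10 leading genes. Its Langerhans panel score was 2.65 and its dendritic one 1.19, against a Langerhans score of 5.82 in cluster 19.0. In WTctrl, clusters 19.1 and 19.2 held most of the class. With 43 cells in RPUV, the class was under the 50 cells set for folds across genes, so this ratio has no background share. Dendritic cell-like cells stood at 3.53 in WTctrl (13 UMIs), 21.8 in WTUV (136 UMIs) and 29.2 in RPUV (12 UMIs). WTUV was 6.19 times WTctrl (3.50 to 11.9), while RPUV was 1.34 times WTUV with an interval, 0.675 to 2.41, that includes no difference.

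Stromal Pgf, in contrast, was present without UVB. Mural cell-like cells, the contractile cells of vessel walls, stood at 79.4, 107 and 84.3 CPM, with 13, 11 and 48 UMIs. Fibroblast-like cells were at 27.8 in WTctrl (43 UMIs) and 37.4 in RPUV (52 UMIs), and WTUV held only 7 of them. In fibroblasts, the signal came from clusters led by Igfbp3, at 110.3 in WTctrl (cluster 12.1) and 122 in RPUV (cluster 12.0). Keratinocyte-like cells had nearly none, with 1, 5 and 3 UMIs in the 3 libraries.

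**Figure D2:**
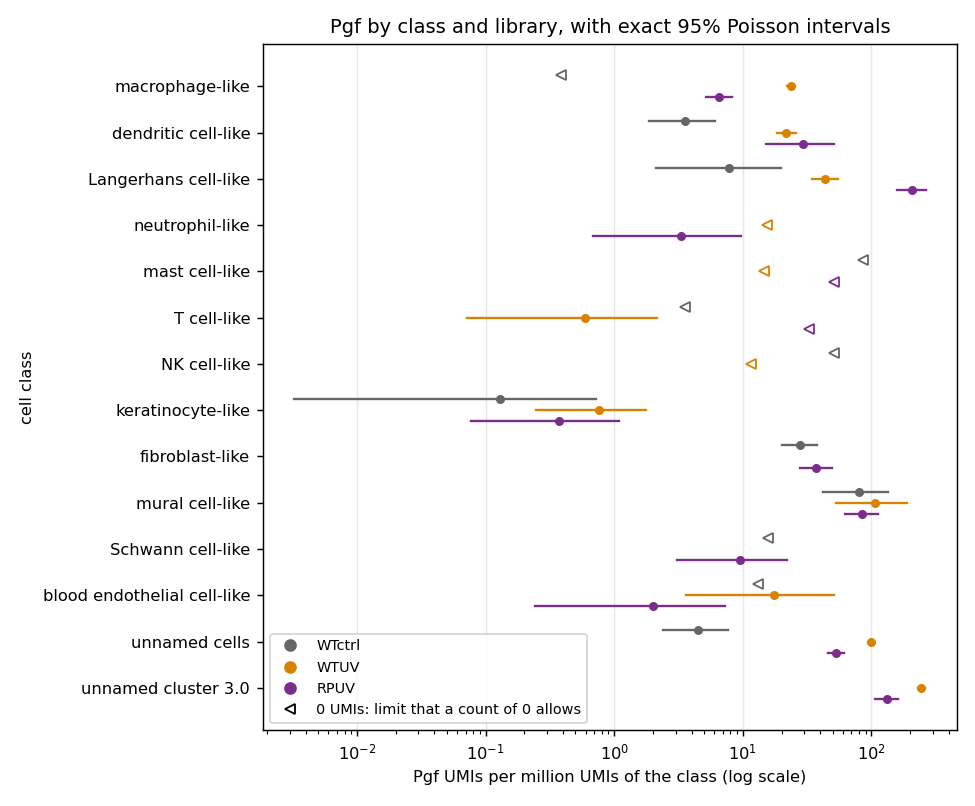
Pgf CPM (log axis) in each class, with exact 95% Poisson intervals as bars and open triangles for classes with 0 UMIs, drawn at the limit that a count of 0 allows. Macrophage-like cells run from 0 in WTctrl to 23.8 in WTUV and 6.56 in RPUV, while Langerhans cell-like cells reach 207 in RPUV.

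Vegfa had many sources and a nearly equal total. Over all kept cells, it stood at 8.68 CPM in WTctrl (224 UMIs), 8.58 in WTUV (554 UMIs) and 10.3 in RPUV (300 UMIs). The classes differed far more than the libraries. Mast cell-like cells, neutrophil-like cells and Langerhans cell-like cells had high levels, macrophage-like and dendritic cell-like cells low ones.

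Keratinocyte-like cells were at 12.0 in WTctrl (93 UMIs), 18.8 in WTUV (123 UMIs) and 11.7 in RPUV (94 UMIs). WTUV was 1.57 times WTctrl (1.19 to 2.08) and RPUV was 0.623 times WTUV (0.471 to 0.821). With the gene limit of 4000 set for WTUV as well, the ratios were 1.03 and 0.950, so neither difference was seen under that limit. It leaves out 1112 cells of the deeper WTUV over all classes, so it also changes which cells are compared. RPUV and WTctrl differed little, with a ratio of 0.977 (0.726 to 1.32). Ptgs2 in these cells was at 5.40 in WTctrl and 586 in RPUV. A link between the 2 genes was not tested. The largest keratinocyte-like cluster differed between the libraries, led by Krt15 in WTctrl, Krt10 in WTUV and Krt16 in RPUV, and held 17.5%, 15.9% and 11.0% of the class.

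Macrophage-like cells were the most numerous class and among the lowest in Vegfa, at 0.768 CPM in WTctrl (6 UMIs), 2.55 in WTUV (79 UMIs) and 1.60 in RPUV (19 UMIs). WTUV was 3.31 times WTctrl (1.46 to 9.30), with 1 of the 2 levels resting on 6 UMIs. Thinned cells gave 2.91, with an interval of 0.759 to 17.3. RPUV was 0.628 times WTUV, with an interval of 0.359 to 1.05. Langerhans cell-like cells stood at 11.7 (6 UMIs), 45.0 (75 UMIs) and 36.7 (11 UMIs). Of the 75 UMIs of WTUV, 35 came from 1 cell, and without it the level was 24.3.

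Neutrophil-like cells numbered 15, 57 and 558. Their Vegfa level was 218 in WTctrl (6 UMIs, 4 of them in 1 cell), 134 in WTUV (26 UMIs) and 57.2 in RPUV (52 UMIs). RPUV was 0.427 times WTUV (0.262 to 0.713) while holding most of the neutrophil-like cells. Cluster 8.2 held 84.2% of the class in WTUV and 17.7% in RPUV, where cluster 8.0 held 54.7%. The part of this mix in the ratio was not tested. Mast cell-like cells were at 228 in WTctrl (8 UMIs) and 174 in WTUV (36 UMIs), and in RPUV 1 UMI was found in 40 cells. Fibroblast-like cells were at 37.5 in WTctrl (58 UMIs) and 42.4 in RPUV (59 UMIs), a ratio of 1.13 (0.774 to 1.65). Blood endothelial cell-like cells had 2, 1 and 5 UMIs.

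**Figure D3:**
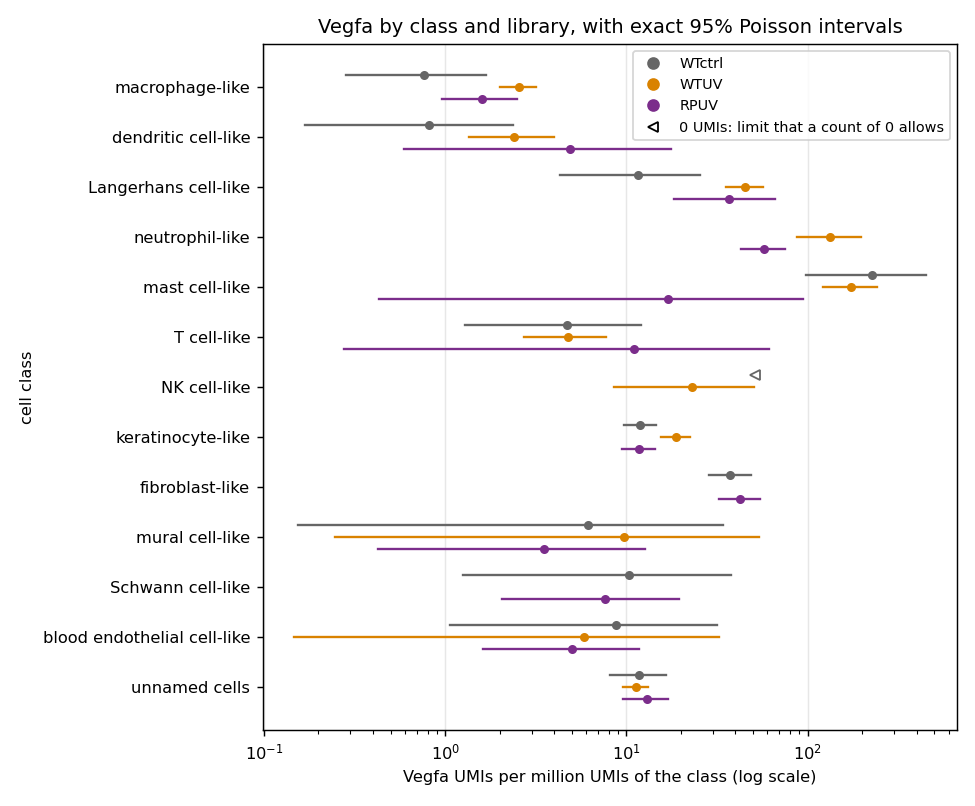
Vegfa CPM (log axis) in each class, with exact 95% Poisson intervals and open triangles where a class had 0 UMIs. Mast and neutrophil-like cells lie above 50 in the libraries with more than 1 UMI, keratinocyte-like cells between 11.7 and 18.8, and macrophage-like cells between 0.768 and 2.55.

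Vegfb varied little. It was at 24.3, 19.7 and 23.7 CPM over all cells. In macrophage-like cells, it was at 35.0, 27.7 and 30.1, in keratinocyte-like cells at 19.8, 14.6 and 21.6, and in T cell-like cells at 27.1, 24.1 and 22.0. Fibroblast-like cells stood at 37.5 in WTctrl and 41.0 in RPUV. Macrophage-like cells of WTUV were at 0.792 times WTctrl (0.690 to 0.911), a difference larger than counting error and smaller than 2-fold.

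Vegfc was the rarest ligand, with 62, 24 and 49 UMIs in the libraries. Fibroblast-like cells were its main source in WTctrl and RPUV, at 30.4 in WTctrl (47 UMIs) and 17.3 in RPUV (24 UMIs), a ratio of 0.568 (0.332 to 0.948). Clusters 12.1 and 11.0 held most of that class in WTctrl, and 12.0 and 11.1 in RPUV. The part of this mix in the ratio was not tested. In blood endothelial cell-like cells, 12 UMIs in WTUV gave 69.8, against 8.81 in WTctrl (2 UMIs) and 14.0 in RPUV (14 UMIs). Those 12 UMIs came from 4 of only 22 cells.

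**Figure D4:**
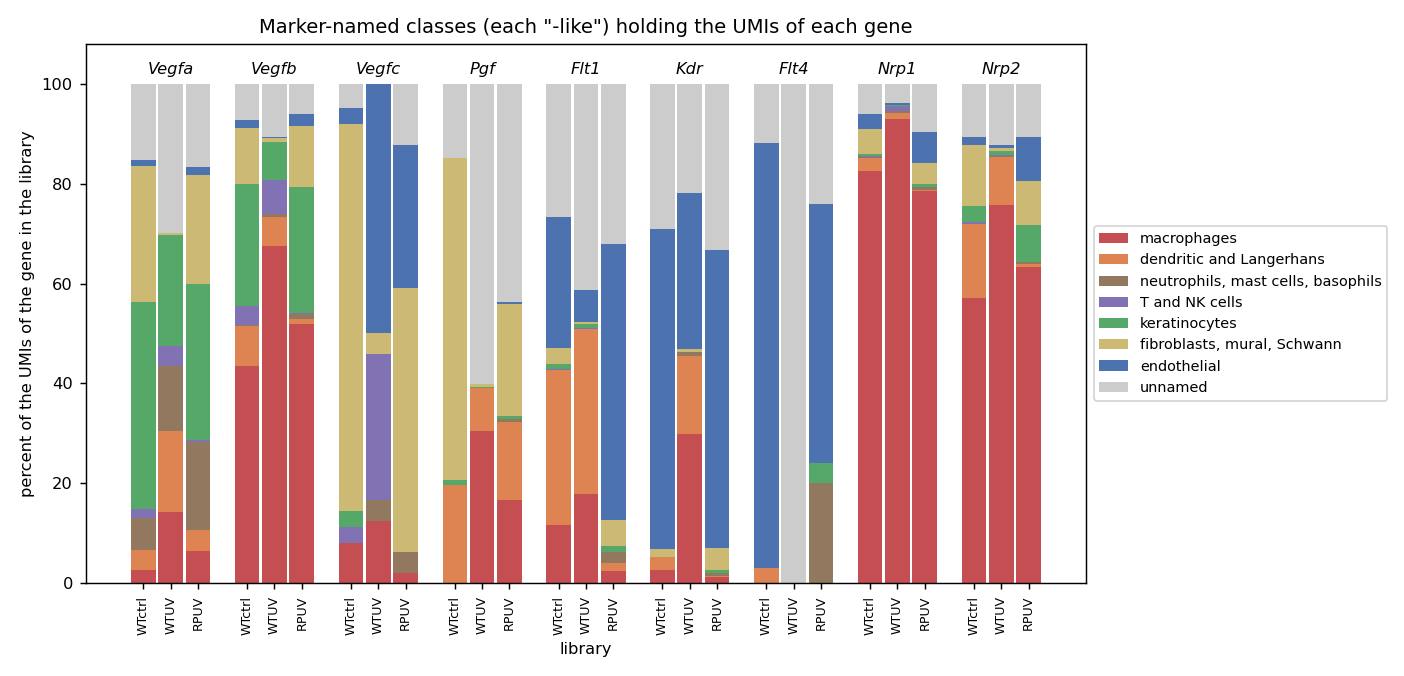
Percent of the UMIs of each gene (bars, 1 per library) held by each marker-named class (colours). Macrophage-like cells hold 78.5% to 93.0% of Nrp1 and 57.0% to 75.8% of Nrp2, and much of Pgf in WTUV lies in unnamed cells.

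Blood endothelial cell-like cells were the receivers with the highest Flt1 and, beside the lymphatic ones, Kdr. They numbered 82, 22 and 315, and their own 8 markers summed to 6911, 6524 and 6536 CPM. Flt1 stood at 973 in WTctrl (221 UMIs), 547 in WTUV (94 UMIs) and 904 in RPUV (903 UMIs). RPUV was 0.929 times WTctrl, with an interval of 0.801 to 1.08. Kdr stood at 546 in WTctrl (124 UMIs), 256 in WTUV (44 UMIs) and 323 in RPUV (323 UMIs). RPUV was thus 0.592 times WTctrl (0.480 to 0.734). The interval of Kdr lay below 1 and that of Flt1 included it. Clustering without integration put Kdr of RPUV nearer to WTctrl, as given in the closing section on processing. The difference between the 2 receptors was not tested.

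Kdr was also lower inside an endothelial cluster. In cluster 9.0, Kdr was at 994 in WTctrl and 523 in RPUV, a ratio of 0.526 (0.401 to 0.695), against 0.886 for Flt1. In cluster 9.2, the ratios were 0.841 and 1.02. In cluster 9.1, which stayed unnamed, Kdr was at 395 in WTctrl and 275 in RPUV. RPUV also held 98 cells of cluster 9.3, with Selp and Ackr1 among its leading genes, where WTctrl held 7 and WTUV 6. Kdr was at 186 and Flt1 at 706 in those cells of RPUV. The macrophage markers summed to 405 in the endothelial class of WTctrl, 174 in WTUV and 707 in RPUV, over 10, 7 and 11 of 12 markers. Keratinocyte markers summed to 172, 2494 and 489, over 9, 11 and 11 of 11 markers, and were thus highest in WTUV. The part of either in the receptor levels was not tested.

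WTUV was below WTctrl in both receptors, at 0.561 times for Flt1 (0.436 to 0.718) and 0.468 times for Kdr (0.324 to 0.666). These values rest on 22 cells and on the other run. With thinned cells, the ratios were 0.80 and 0.789, with intervals that include no difference, and no order of WTUV against WTctrl is read from them. The expected thinned share of cells with a Flt1 UMI was 76.9%, 63.8% and 76.2% in the 3 libraries, against at most 0.123% of T cell-like cells.

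Flt4 marks lymphatic endothelium and was found in few cells, with 34, 3 and 25 UMIs. In lymphatic endothelial cell-like cells of WTctrl (12 cells), it stood at 671 (22 UMIs), beside Kdr at 793 (26 UMIs). In blood endothelial cell-like cells, Flt4 was at 30.8 in WTctrl (7 UMIs) and 11.0 in RPUV (11 UMIs). Lymphatic cells of WTUV and RPUV numbered 1 and 6, too few to compare.

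**Figure D5:**
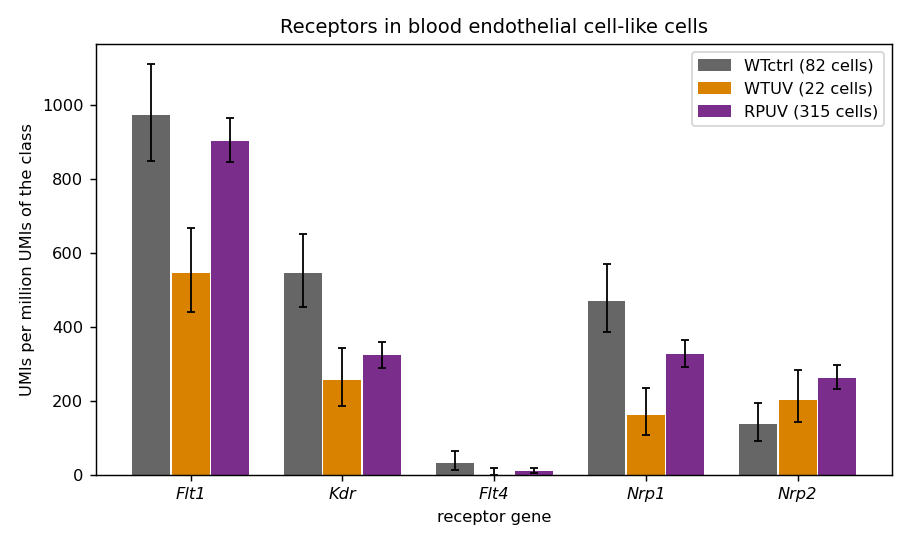
CPM (axis from 0) of the receptor genes in blood endothelial cell-like cells, bars for the 3 libraries with exact 95% Poisson intervals. Flt1 is at 973 in WTctrl and 904 in RPUV, and Kdr at 546 and 323.

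Flt1 was also a receptor of myeloid cells, where Kdr was nearly absent. Dendritic cell-like cells stood at 70.6 in WTctrl (260 UMIs), 68.4 in WTUV (426 UMIs) and 51.2 in RPUV (21 UMIs). The expected thinned shares were 9.93%, 11.1% and 9.32% of cells. The level was uneven within the class, with 176 in WTctrl and in WTUV in cluster 3.3, led by Ear2, against 13.2 and 9.87 in cluster 3.1. Endothelial markers in dendritic cell-like cells summed to 45.4, 20.7 and 56.0 CPM, over 5, 5 and 6 of 8 genes. Their part in this Flt1 was not tested. Cluster 3.0, the richest in Pgf, held Flt1 too, at 70.3 in WTUV and 57.1 in RPUV.

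In macrophage-like cells, Flt1 was at 12.8 in WTctrl (100 UMIs), 8.38 in WTUV (260 UMIs) and 3.28 in RPUV (39 UMIs). RPUV was 0.391 times WTUV (0.272 to 0.549) and 0.256 times WTctrl (0.172 to 0.374), and WTUV was 0.654 times WTctrl (0.518 to 0.833). Within cluster 4.0, led by Lyz1, the levels were 112, 68.5 and 35.4 in WTctrl, WTUV and RPUV. That cluster held 72, 130 and 27 cells, and the part of its size in the class ratios was not tested. Endothelial markers in macrophage-like cells summed to 8.71, 7.83 and 14.3 CPM, lowest in WTUV and highest in RPUV. Their part in this Flt1 was not tested. Mural cell-like cells stood at 110.0, 29.1 (3 UMIs) and 139, beside endothelial markers of 336, 194 and 427 CPM, whose part in that Flt1 was not tested. Keratinocyte-like cells had 8, 13 and 20 Flt1 UMIs, at 1.03, 1.98 and 2.49, beside endothelial markers of 5.79, 1.37 and 17.8 CPM. Their part in this Flt1 was not tested, and with every cluster named by its best panel RPUV was 0.729 times WTctrl.

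Neutrophil-like cells of RPUV stood at 39.6 for Flt1 (36 UMIs), with 0 UMIs in WTctrl and in WTUV, which allow up to 109 and 15.4. In those cells of RPUV, endothelial markers summed to 46.2 CPM over 7 of 8 genes, and to 0 in WTUV. Their part was not tested. With every cluster named by its best panel, RPUV was 0.453 times WTUV. Kdr was at 0.768, 1.42 and 0.589 in macrophage-like cells (6, 44 and 7 UMIs). T cell-like cells had 0 Kdr UMIs in all 3 libraries.

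The neuropilins had the most UMIs of the 9 genes, 19403 for Nrp1 and 11174 for Nrp2 over the 3 libraries, and macrophage-like cells held most of them. Nrp1 stood at 385 CPM in macrophage-like cells of WTctrl (3005 UMIs), 312 in WTUV (9685 UMIs) and 353 in RPUV (4201 UMIs). The class held 82.6%, 93.0% and 78.5% of all Nrp1 UMIs. WTUV was 0.811 times WTctrl (0.779 to 0.845), and RPUV 1.13 times WTUV (1.09 to 1.17), differences beyond counting error and far under 2-fold.

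Within WTUV, the clusters rich in Pgf were low in Nrp1. Cluster 4.1 was at 33.2 and cluster 2.2 at 173, while clusters 0.1 and 1.2, where Pgf was nearly absent, were at 443 and 495. Cluster 3.0 was at 14.2. Nrp2 was likewise at 27.0 in cluster 4.1 and 64.3 in cluster 2.2, against 200.2 and 202 in clusters 0.1 and 1.2.

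Nrp1 in blood endothelial cell-like cells stood at 471 in WTctrl (107 UMIs), 163 in WTUV (28 UMIs) and 327 in RPUV (327 UMIs). RPUV was 0.695 times WTctrl (0.557 to 0.872). WTUV was 0.345 times WTctrl (0.219 to 0.528), but 0.924 times (0.422 to 1.95) inside cluster 9.2, which held 12 of its 22 cells. Mast cell-like cells were at 199.7, 213 and 357, with 7, 44 and 21 UMIs, and no pair differed beyond counting error. T cell-like cells were at 14.1, 28.9 and 11.0, and WTUV was 2.05 times WTctrl (1.12 to 4.10). That direction turned by marker UMIs (0.937) and by the best panel (0.929), and inside cluster 6.0 the ratio was 1.5 (0.579 to 4.55). Keratinocyte-like cells stood at 1.80, 2.14 and 4.85.

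Nrp2 was at 164 in macrophage-like cells of WTctrl, 144 in WTUV and 162 in RPUV, which held 57.0%, 75.8% and 63.4% of its UMIs. Schwann cell-like cells stood at 208 in WTctrl (40 UMIs) and 141 in RPUV (74 UMIs), and fibroblast-like cells at 145 and 124. In blood endothelial cell-like cells, Nrp2 went opposite to Kdr and Nrp1, from 137 in WTctrl (31 UMIs) to 263 in RPUV (263 UMIs), a ratio of 1.93 (1.33 to 2.90). In WTUV it was at 204 (35 UMIs). The mix of endothelial clusters differed, with 98 cells of cluster 9.3 in RPUV and 7 in WTctrl. The part of this mix in the Nrp2 ratio was not tested.

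In keratinocyte-like cells, Nrp2 was at 9.26 in WTctrl (72 UMIs), 5.49 in WTUV (36 UMIs) and 28.4 in RPUV (228 UMIs). RPUV was 5.16 times WTUV (3.62 to 7.56) and 3.06 times WTctrl (2.34 to 4.05). The mix of clusters differed too. The cluster led by Cfd had 68 cells in RPUV, 23 in WTctrl and 4 in WTUV and held 93 of the 228 and 39 of the 72 Nrp2 UMIs. Inside it, Nrp2 was lower in RPUV, at 105 against 179 in WTctrl, a ratio of 0.589 (0.401 to 0.879). Outside it, the rest of the class had a higher level in RPUV than in WTctrl. Macrophage markers in keratinocyte-like cells were at 55.1, 156 and 341 CPM, with all 12 detected in WTctrl and in RPUV and 11 in WTUV. Their part in the Nrp2 level was not tested. In dendritic cell-like cells, Nrp2 was at 88.8, 86.3 and 39.0, and RPUV was 0.452 times WTUV (0.256 to 0.740). Here too the clusters differed, since cluster 3.2 held 57.8% of the class in RPUV, 25.2% in WTUV and 15.4% in WTctrl. Inside it, Nrp2 was at 50.8 in RPUV and 48.1 in WTUV, a ratio of 1.06 (0.522 to 1.96). Of the 537 UMIs of WTUV, 169 came from cluster 26.0, led by Ccl22, where RPUV held 3 cells.

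The 2-fold rule stood in for a test, among genes with at least 20 UMIs over both libraries and classes of at least 50 cells in each. In macrophage-like cells, 2 of 7 members that could be compared were past 2-fold in WTUV over WTctrl (Vegfa and Pgf, higher), where 10.3% of all genes were. In RPUV over WTUV 3 of 7 were (Pgf, Flt1 and Kdr, lower), against 12.4%. In RPUV over WTctrl, it was 3 of 6 (Vegfa and Pgf higher, Flt1 lower), against 13.3%. For Vegfa, the last rests on 19 and 6 UMIs, with an interval of 0.798 to 6.36. The median log2 ratio of the members compared was -0.18, -0.45 and -0.07 in these comparisons, beside 0.03, -0.05 and 0.01 over all genes.

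In dendritic cell-like cells, 2 of 6 members were past 2-fold in WTUV over WTctrl (Pgf and Kdr, higher) against 6.24% of genes, 1 of 6 in RPUV over WTUV (Nrp2, lower) against 19.7%, and 2 of 5 in RPUV over WTctrl (Pgf higher, Nrp2 lower) against 20.6%. Kdr there rests on 22 and 6 UMIs. In Langerhans cell-like cells, 3 of 5 were past it in WTUV over WTctrl (Vegfa, Pgf and Flt1, higher) against 10.7%. Flt1 turned lower there, to 0.236 times with the gene limit of 4000 and 0.501 times with cells taken by marker UMIs. In neutrophil-like cells, both members compared were past it in RPUV over WTUV (Vegfa lower, Flt1 higher) against 18.8%.

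In T cell-like cells, the counts were 1 of 4 against 7.79% in WTUV over WTctrl, 1 of 3 against 35.3% in RPUV over WTUV, and 0 of 1 against 25.3% in RPUV over WTctrl. The member past it was Nrp1 in each of the first 2, on 1 UMI in RPUV. In keratinocyte-like cells, 0 of 5 members were past 2-fold in WTUV over WTctrl against 8.16%, 2 of 5 in RPUV over WTUV (Nrp1 and Nrp2, higher) against 13.5%, and 3 of 5 in RPUV over WTctrl (Flt1, Nrp1 and Nrp2, higher) against 20.6%. The median log2 ratio of the members was 0.16, 0.53 and 0.78, beside -0.13, 0.07 and -0.05 over all genes.

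In RPUV over WTctrl, the stromal classes had few members past 2-fold. It was 0 of 6 in fibroblast-like cells against 12.2% of genes, 0 of 5 in blood endothelial cell-like cells against 15.7%, 1 of 5 in mural cell-like cells (Vegfb, lower) against 17.1%, and 0 of 2 in Schwann cell-like cells against 11.0%. Together 26 of 85 pairs of member and comparison were past 2-fold, where the shares over all genes ran from 6.24% to 35.3% by comparison. With thinned cells 11 were left, out of a number of comparable pairs that is not given. The pairs share libraries and are not independent.

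Other genes of vessel growth were read by the same rule in fixed lists. Among 8 angiogenesis inhibitors in macrophage-like cells, 4 could be compared in WTUV over WTctrl, with 2 higher and 2 lower, where 10.3% of all genes were past 2-fold. Thrombospondin 1 (Thbs1), a secreted inhibitor, stood at 1.15 CPM in WTctrl, 103 in WTUV and 51.6 in RPUV. It thus appeared in both irradiated libraries, as Pgf did. Pigment epithelium-derived factor (Serpinf1), another inhibitor, was at 53.7, 25.1 and 7.90. Cxcl10, a chemokine that restrains vessels, was at 27.5, 58.8 and 90.5.

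Of 14 HIF and hypoxia genes compared in these cells, 3 were higher and 0 lower in WTUV over WTctrl, beside 10.3% of all genes past 2-fold. Ndrg1 was at 16.8, 64.2 and 21.4 and was thus back near WTctrl in RPUV. The glucose transporter gene Slc2a1 went from 4.61 to 12.4. In keratinocyte-like cells, 0 of 14 HIF genes were past 2-fold in WTUV over WTctrl, while 4 were higher and 2 lower in RPUV over WTctrl. The shares over all genes were 8.16% and 20.6%. Lactate dehydrogenase A (Ldha) went from 237 to 603, and Bnip3 from 35.2 to 13.9. The median log2 ratio of the 14 genes in RPUV over WTctrl was -0.17. In RPUV over WTUV, 1 was higher and 2 lower, beside 13.5% of all genes.

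Of 7 genes of class 3 semaphorins, which bind neuropilins, and of their plexin partners compared in keratinocyte-like cells, 0 were higher and 3 lower in RPUV over WTUV (Sema3c, Sema3d and Plxnd1). In RPUV over WTctrl, 0 were higher and 3 lower (Sema3c, Sema3d and Sema3f). The shares over all genes were 13.5% and 20.6%. Sema3c stood at 166 in WTctrl, 89.4 in WTUV and 38.2 in RPUV. Sema3d stood at 83.6, 49.0 and 10.4.

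In blood endothelial cell-like cells of RPUV over WTctrl, where 15.7% of all genes were past 2-fold, 3 of 4 inhibitors compared were higher, among them Col18a1, the source of endostatin, from 30.8 to 206. Of 15 other angiogenic ligands and receptors, 2 were higher and 1 lower, a share near that of all genes. The apelin receptor gene Aplnr was at 132 in WTctrl and 298 in RPUV. The Notch ligand gene Dll4, found in tip cells and arteries, was at 115 and 47.1. Cluster 9.3 was larger in RPUV, and its part in these values was not tested. Of 7 genes known to respond to VEGF, 2 were higher and 1 lower, with the calcineurin regulator Rcan1 at 52.9 and 113. In fibroblast-like cells, 5 of 13 HIF genes were higher and 0 lower, beside 12.2% of all genes, with Ldha at 99.5 and 351. The fibroblast markers in that class summed to 94803 CPM in WTctrl and 28640 in RPUV, and its main clusters differed. The part of either in these values was not tested.

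The genes whose levels followed each member most closely over 25 profiles of class and library were found by Pearson correlation of log levels with a pseudocount of 10 CPM, as a description. For Kdr, these were the endothelial genes Egfl7 (r = 0.976), Cdh5 (0.961) and Ptprb (0.955). For Flt1, the closest were Pde2a (0.911) and Pecam1 (0.876). Vegfa was closest to Tgfbr1 (0.783), Pgf to Rgs7bp (0.811) and Nrp1 to B3galnt1 (0.910). Profiles of 1 library share depth and run.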

How the data were processed

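The 3 libraries were prepared with 10x 3′ chemistry from collagenase-digested, CD45+ bead-enriched dorsal skin. The deposited matrices hold raw UMI counts, which the authors made with Cell Ranger 6.1.1 on mm10 per the labels, without normalization. Cells with over 200 genes, under 10% mitochondrial UMIs and under 4000 genes (6000 in WTUV) were kept, as in the methods of the study. Libraries were normalized with SCTransform (sctransform 0.4.2), integrated in Seurat 5.3.0 under R 4.3.3, clustered, and split again with leidenalg 0.10.2 in scanpy 1.11.5 (Python 3.11.15), leaving out the 9 genes. The limits for naming a cluster were set after the clusters were seen. The members and gene lists were chosen with earlier results of these data known. No doublets were removed. Scrublet marked 1.39%, 0.0191% and 0.0165% of cells, too few to use. The named genes were the 9 members and the list genes past 2-fold. UMIs were summed per class and library as CPM, with exact Poisson 95% intervals, and ratios with exact binomial ones (scipy 1.17.1). A floor is 3 counts. Ratios were given from 4 UMIs in 1 library and called past 2-fold from 20 UMIs over both. The code was tested on simulated counts. The alternatives were 1 gene limit for all libraries, clustering without integration, cells taken by marker UMIs or by the best panel without limits, means over cells, thinning to 2000 UMIs (as the expectation over random draws, chosen after single draws were seen to differ), and leaving out the 5% of each library that Scrublet scored highest.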

Additional observations from a re-analysis of the deposited data

Results flagged for a closer look

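In several cases the same gene moved past 2-fold in opposite directions in 2 classes under the same comparison. With 1 library per group, none of these differences between classes was tested. Pgf in RPUV over WTUV was 4.72 times in Langerhans cell-like cells and 0.276 times in macrophage-like cells. Flt1 in WTUV over WTctrl was 2.16 times in Langerhans cell-like cells and 0.264 times in mural cell-like cells, where WTUV held 3 UMIs. The Langerhans value turned to 0.236 with the gene limit of 4000 and to 0.501 by marker UMIs. Flt1 in RPUV over WTUV was at least 2.56-fold higher in neutrophil-like cells and 4.77 times in mural cell-like cells, against 0.391 times in macrophage-like cells. The neutrophil value turned to 0.453 by the best panel, and endothelial markers in those cells went from 0 to 46.2 CPM. Flt1 in RPUV over WTctrl was 2.42 times in keratinocyte-like cells (20 and 8 UMIs) and 0.256 times in macrophage-like cells. The keratinocyte value turned to 0.729 by the best panel, and endothelial markers there went from 5.79 to 17.8 CPM. Nrp1 in WTUV over WTctrl was 2.05 times in T cell-like cells and 0.345 times in blood endothelial cell-like cells. The T cell value turned to 0.937 by marker UMIs and 0.929 by the best panel, and the endothelial one was 0.924 (0.422 to 1.95) inside cluster 9.2. Nrp2 in RPUV over WTUV was 5.16 times in keratinocyte-like cells, 0.452 times in dendritic cell-like cells and 0.190 times in mural cell-like cells. The mural value turned to 1.27 with the gene limit, and the dendritic one was 1.06 (0.522 to 1.96) inside cluster 3.2. Nrp2 in RPUV over WTctrl was 3.06 times in keratinocyte-like cells and 0.439 times in dendritic cell-like cells. Inside the keratinocyte-like cluster led by Cfd it was 0.589 (0.401 to 0.879), while the rest of that class stood higher in RPUV.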

How the results depend on the processing

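The alternatives moved the comparisons with WTUV most, and the cause was not tested. Pooling the cells of the macrophage, dendritic and Langerhans panels was chosen after seeing the data and changed Pgf of WTUV over WTctrl to 30.2 and of RPUV over WTUV to 0.438. With 1 gene limit of 4000, Pgf in macrophage-like cells was at 0.210 times in RPUV over WTUV, Vegfa in keratinocyte-like cells at 1.03 in WTUV over WTctrl and 0.950 in RPUV over WTUV, and in blood endothelial cell-like cells Flt1 was at 0.721 and 1.29 and Kdr at 0.719 and 0.823 in the same order. Without integration, endothelial Kdr was at 1.06 and 0.866, so RPUV lay nearer to WTctrl than in the main classes. With cells taken by marker UMIs, Vegfa in macrophage-like cells was at 10.3 in WTUV over WTctrl. As means over cells, Pgf in macrophage-like cells was at 0.194 in RPUV over WTUV. With cells thinned to 2000 UMIs, Pgf in macrophage-like cells was at least 26.5-fold higher in WTUV over WTctrl and at 0.212 in RPUV over WTUV, endothelial Flt1 at 0.80 and 1.23, and endothelial Kdr at 0.789 and 0.718. Thinning left 11 of the pairs of member and comparison past 2-fold, against 26. It lowers the UMIs, so fewer pairs may reach 20 UMIs, and the 2 counts need not share a denominator. A few directions turned. Flt1 in Langerhans cell-like cells of WTUV over WTctrl was at 0.236 with the gene limit and 0.501 by marker UMIs. By the best panel, Flt1 was at 0.453 in neutrophil-like cells of RPUV over WTUV and at 0.729 in keratinocyte-like cells of RPUV over WTctrl. Nrp1 in T cell-like cells of WTUV over WTctrl was at 0.937 by marker UMIs and 0.929 by the best panel. Nrp2 in mural cell-like cells was at 0.50 in WTUV over WTctrl and 1.27 in RPUV over WTUV with the gene limit. No paired analysis was possible because each group had 1 library. The depth limits every level resting on fewer than 20 UMIs, such as Flt4 and Vegfc outside their main classes.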

Other observations

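Some values of the same cells lie outside the comparisons above. In keratinocyte-like cells, the prostaglandin E2 receptor gene Ptger4 was at 25.1 CPM in WTctrl, 18.8 in WTUV and 6.09 in RPUV, and the immediate-early gene Nr4a1 at 82.6, 73.7 and 19.4. Of 2 such receptor genes compared there, Ptger4 was past 2-fold lower and Ptger3 past it higher, in RPUV over WTUV and over WTctrl. The shares over all genes were 13.5% and 20.6%. In macrophage-like cells, Pdgfb, a growth factor for mural cells, was at 16.0, 18.0 and 6.73, and another receptor gene, Ptger2, at 5.51 in WTctrl and 1.93 in RPUV. In fibroblast-like cells, Nr4a1 was at 50.4 in WTctrl and 227 in RPUV, opposite to the order in keratinocyte-like cells, and Thbs1 at 63.3 and 237. The main fibroblast-like clusters differed between these libraries, and the part of that mix was not tested. Basophil-like cells, too few for a comparison, had 10 Vegfa UMIs in 13 cells of WTUV, or 153 CPM (73.4 to 281).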
